A study of Mus musculus with 8 samples.

Results

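The genes of the constitutive proteasome were followed in brown adipose tissue (BAT) of WT and Cd36KO mice. They were taken as the rows of the count table whose mouse symbol starts with Psma, Psmb, Psmc or Psmd followed by a digit. The immunoproteasome genes Psmb8, Psmb9 and Psmb10, the gene Psmc2 near Cd36 and pseudogenes were left out. This rule gave 36 genes of 31053 rows, and of those 36 genes 35 had at least 1 read in some library. 1 of the 36, Psmc3ip, a meiotic recombination factor, matches the rule by its spelling only and is not a proteasome subunit.

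The proteasome is the protease that degrades most intracellular proteins once ubiquitin has been attached to them. Its barrel-shaped core particle is built from outer rings of alpha subunits, which gate the chamber, and inner rings of beta subunits, which carry the catalytic sites. The regulatory particle binds ubiquitin, removes it, and unfolds the substrate with a ring of ATPases. In brown fat the transcription factor NFE2L1 is known to drive proteasome genes when thermogenesis raises protein turnover.

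The libraries were bulk RNA-seq of BAT from mice of strain C57BL6/J, labelled as 8 weeks old, with 4 WT and 4 Cd36KO libraries. CD36 is a scavenger receptor for lipids. The labels give the deletion only as Cd36KO. The study describes a germline deletion and a deletion driven by Csf1r Cre in macrophages and other myeloid cells, and attributes its BAT transcriptome to the second, so other cells of the tissue may still carry Cd36. The study's methods give an older age for the animals with the macrophage deletion. The question was what the loss of Cd36 did to gene expression in BAT. For 1 Cd36KO library the count table gives the group but no number, and it is called the unnumbered Cd36KO library. The labels name no animals, while the study gives as many mice as libraries in each group.

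Several checks of the whole series bear on these values. Total counts ranged from 2679785 to 4097953 per library. Cd36 had 2796, 2958, 3505 and 2412 normalized counts in WT replicates 1 to 4, 1926 in the unnumbered Cd36KO library and 2109, 2384 and 1930 in Cd36KO replicates 2 to 4. The groups did not overlap, and no Cd36KO library had lost the transcript (log2 fold change -0.48, DESeq2 adjusted p = 0.0602). Cd36 passed without WT replicate 4 (-0.56, DESeq2 adjusted p = 0.00611) and with the muscle marker score as a covariate (-0.66, 0.0284), while without any other single library its adjusted p was 0.0568 to 0.288. The cell type label names the stromal vascular fraction, whereas the tissue label names BAT. All 6 markers of mature adipocytes were abundant in all 8 libraries, with a summed normalized count of 26744 to 48348 in WT and 28922 to 31564 in Cd36KO. The study's methods describe male mice, but Xist had 772 to 1588 reads in every library and Uty, Kdm5d and Eif2s3y on the Y chromosome had 0. Ddx3y, also on the Y chromosome, had 0 to 3 reads per library and 3 in total. WT replicate 1 stood apart, with a summed normalized count of 59657 over 15 skeletal muscle markers, against 725 as the lowest WT sum and 132 to 8808 in Cd36KO. By the muscle marker score (mean log2 CPM), WT replicates 1, 2 and 4 had 9.793, 7.392 and 7.535. These lay above every Cd36KO library (0.7495 to 7.032), while WT replicate 3 had 3.414. The unnumbered Cd36KO library had the highest sum over 4 haemoglobin genes, 16198, against 4594 to 8561 in WT. White adipose markers, of which 4 of 5 had reads and Hoxc10 was at 0, summed to 193 to 558 in WT and 41.0 to 94.6 in Cd36KO, with no overlap. Lep, Hoxc8 and Aldh1a1 passed (DESeq2 adjusted p = 9.58e-06, 5.58e-08 and 8.08e-05), and Hoxc9 had no adjusted p. The 10 brown adipocyte markers summed to 18299 to 23684 in WT and to 32317 to 40806 in Cd36KO, also with no overlap. Ucp1, Cidea, Cox8b and Cox7a1 passed (DESeq2 adjusted p = 0.00843, 5.92e-06, 0.0337 and 0.0273). The other brown markers did not, with Ppara and Zic1 at log2 fold changes of 0.07 and 0.00. The 5 stromal markers did not overlap either, with sums of 1990 to 2747 in WT and 1566 to 1920 in Cd36KO, and of these the collagen gene Col1a2 passed (log2 fold change -1.10, DESeq2 adjusted p = 0.000724). The 5 endothelial markers overlapped, at 680 to 1105 in WT and 786 to 1131 in Cd36KO. The part of these sums in the values of the proteasome genes was not tested beyond the muscle and white adipose scores. In bulk tissue a smaller number of cells of a type cannot be told apart from less RNA per cell.

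No proteasome gene passed the test between Cd36KO and WT. DESeq2, fitted over all genes, called 0 of the 33 members that had an adjusted p, where 1.42% of 9617 genes were called higher in Cd36KO, 1.53% lower and 2.95% in either direction at an adjusted p under 0.05. The edgeR quasi-likelihood test also called 0 of 33 members, against 0.143% of all genes it tested. At an unadjusted p under 0.05, DESeq2 gave 3 members with higher values in Cd36KO (Psma6, Psmb6 and Psmc4) and 0 with lower values, while 7.69% of all genes were higher and 7.88% lower at that level. In edgeR 2 members, Psmb6 and Psmc4, reached an unadjusted p under 0.05 with higher values, where 7.23% of all genes did. The count of 0 became 1 (Psma2) without WT replicate 4, a fit that called 5.74% of all genes higher. It became 3 (Psmb4, Psmb6 and Psmd13) with the white adipose marker score as a covariate, a fit that called 6.3% of all genes higher and whose score does not overlap between the groups.

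The sizes of the differences were small. Over the 35 members with reads the median log2 fold change of Cd36KO against WT was 0.02, with 18 estimates above 0 and 17 below, and the median over all genes with an adjusted p was -0.01. For 31 members the mean normalized count over the 8 libraries was at least 50. Among these 31 the median was 0.02, the quartiles were -0.15 and 0.20 and the range ran from -0.46 for Psmd14 to 0.54 for Psmc4. The 5528 genes of the whole table at that level had a median of 0.03 and quartiles of -0.22 and 0.27. The 95% Wald interval of the fold change spanned 0 for 28 of the 31 members. It lay within a 1.5-fold change in either direction for 16 of them and within a 2-fold change for 29, so that for most members a doubling or halving lay outside the interval, while a change of 1.5-fold did not for 15.

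**Figure D1:**
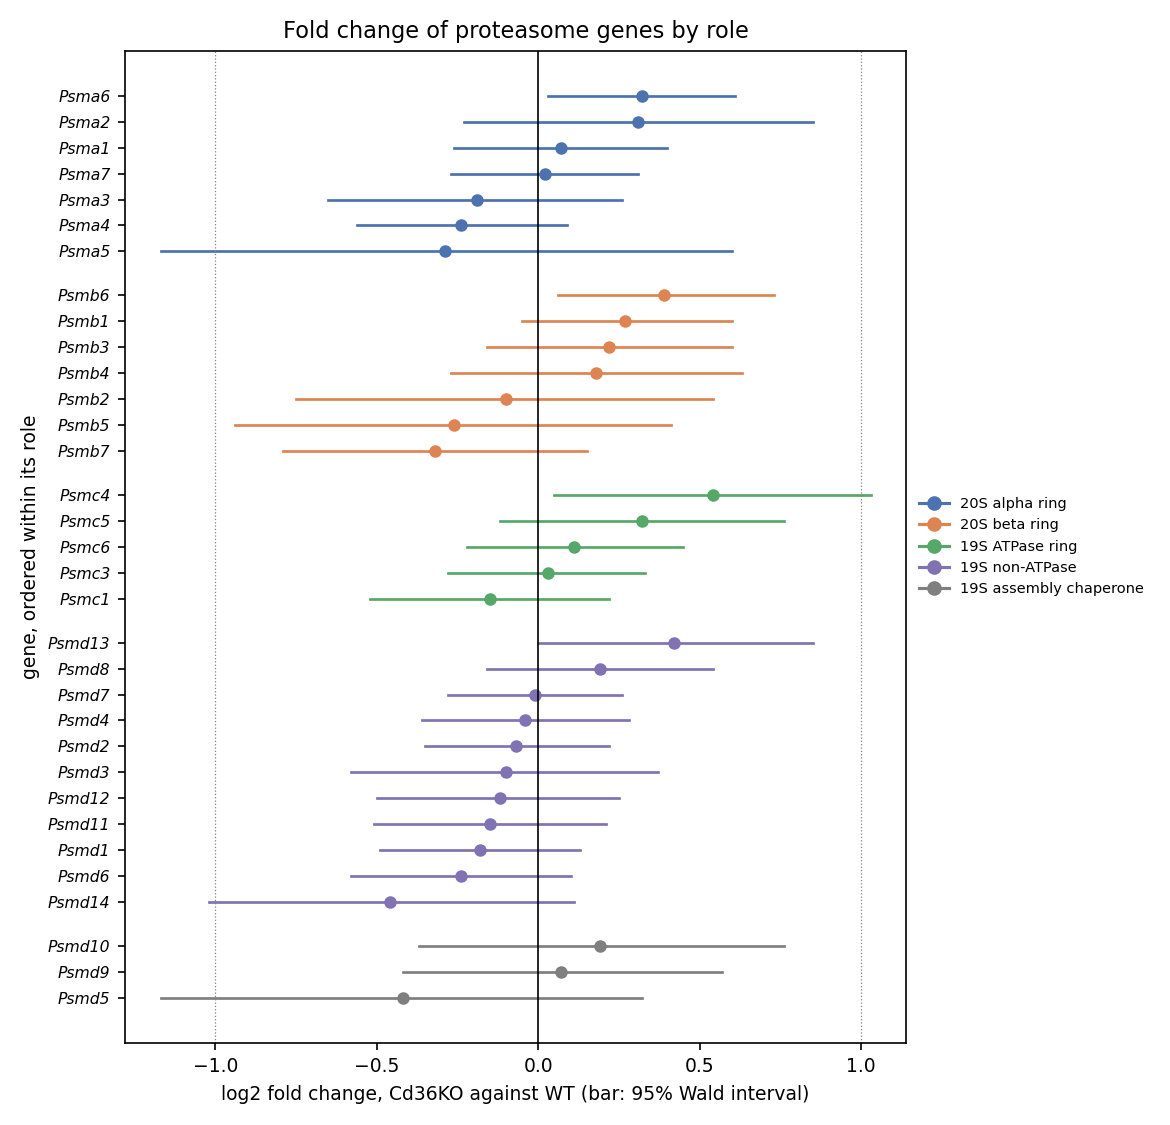
Log2 fold change of 33 proteasome genes with an adjusted p (horizontal axis, Cd36KO against WT) by role and in order of the estimate (vertical axis). Points are DESeq2 estimates and bars their 95% Wald intervals. Dotted lines mark a 2-fold change. Most bars cross 0, and the estimates run from -0.46 to 0.54 among genes with a mean of at least 50.

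The summed level of the members did not separate the groups. The 36 genes summed to 10745 normalized counts in WT replicate 1, 12561 in replicate 2, 12590 in replicate 3 and 13814 in replicate 4. In Cd36KO the sum was 13974 in the unnumbered library and 12118, 12656 and 13351 in replicates 2, 3 and 4. The mean was 12428 ± 1265 (SD, n = 4) for WT against 13025 ± 809 (SD, n = 4) for Cd36KO, and the groups overlapped. WT replicate 1 was the lowest of the 8 libraries and the unnumbered Cd36KO library the highest. Levels are compared here between libraries and not between members, because the part of a transcript that the library kit counts is not stated.

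The estimates of the 3 catalytic beta subunits differed in sign. Psmb6, the subunit with caspase-like activity (ENSMUSG00000018286, chromosome 11, 70525367 to 70527858), had 357, 493, 486 and 505 normalized counts in WT replicates 1 to 4, 687 in the unnumbered Cd36KO library and 552, 526 and 651 in Cd36KO replicates 2 to 4. All Cd36KO values lay above all WT values. Psmb6 was the only 1 of the 31 members with that pattern, against 6.91% of 5528 genes, and 0 of the 31 had all Cd36KO values below all WT values, against 3.96%. Psmb6 did not pass (log2 fold change 0.39, standard error 0.17, DESeq2 adjusted p = 0.215).

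Psmb7, the subunit with trypsin-like activity, had 203, 266, 195 and 364 normalized counts in WT replicates 1 to 4, 150 in the unnumbered Cd36KO library and 236, 211 and 226 in Cd36KO replicates 2 to 4. The groups overlapped, and the estimate had the opposite sign to that of Psmb6 (log2 fold change -0.32, standard error 0.24, DESeq2 adjusted p = 0.557). It was -0.11 without WT replicate 4 and -0.20 without the unnumbered Cd36KO library. Its exons overlap Nek6 on the opposite strand, so reads of both genes could not be told apart if counting ignored strand. Psmb5, the subunit with chymotrypsin-like activity, had 43.3, 45.9, 49.4 and 110 in WT replicates 1 to 4, 42.3 in the unnumbered Cd36KO library and 46.0, 51.1 and 66.4 in Cd36KO replicates 2 to 4. WT replicate 4 alone set the higher WT mean, and the log2 fold change of -0.26 (standard error 0.35, DESeq2 adjusted p = 0.788) became 0.17 without it.

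The other beta subunits, which build the inner rings without a catalytic site, had log2 fold changes of 0.27 for Psmb1, 0.22 for Psmb3, 0.18 for Psmb4 and -0.10 for Psmb2. None passed in DESeq2, with adjusted p-values from 0.447 to 0.929. The estimate of Psmb4 was 0.43 without WT replicate 4 and 0.04 without the unnumbered Cd36KO library. With WT replicate 1 and the unnumbered Cd36KO library both left out it was -0.07. Over the 7 detected beta genes the median was 0.18, with 4 estimates above 0 and 3 below. Psmb11, the beta subunit of cortical thymic epithelium, had 0 reads in all 8 libraries, which allows up to 3 reads in each by counting error.

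**Figure D2:**
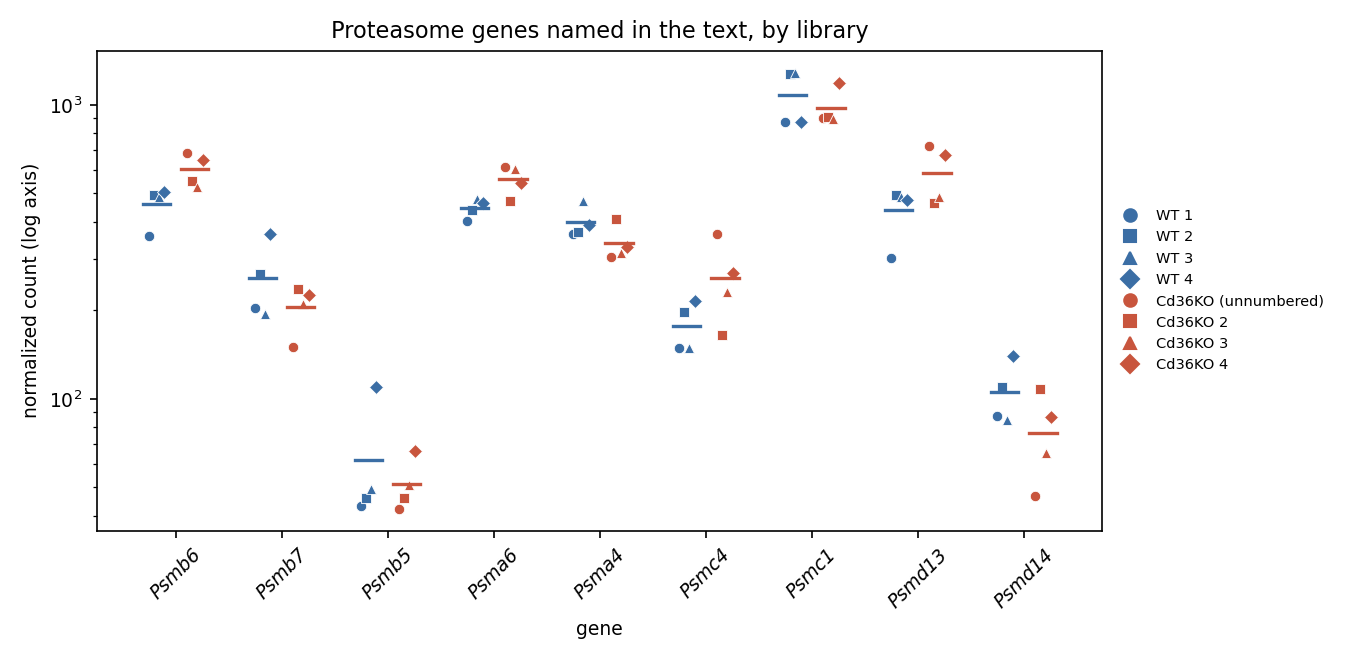
Normalized counts (vertical log axis) of 9 proteasome genes (horizontal axis) in 4 WT (blue) and 4 Cd36KO (red) libraries. Each marker shape is a library and bars are group means. Psmb6 is the gene whose groups do not overlap, with 357 to 505 in WT against 526 to 687 in Cd36KO.

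In the alpha rings, Psma6 had the highest and Psma4 the lowest log2 fold change among the 6 genes with a mean of at least 50. Psma6 had 404, 440, 480 and 464 normalized counts in WT replicates 1 to 4, 614 in the unnumbered Cd36KO library and 471, 603 and 544 in Cd36KO replicates 2 to 4. Only the value of Cd36KO replicate 2 fell inside the WT range (log2 fold change 0.32, standard error 0.15, DESeq2 adjusted p = 0.256). Psma4 had 365, 370, 470 and 391 in WT replicates 1 to 4, 304 in the unnumbered Cd36KO library and 409, 314 and 328 in Cd36KO replicates 2 to 4. Its log2 fold change was -0.24 (standard error 0.17, DESeq2 adjusted p = 0.527), and -0.15 without WT replicate 3. Its exons overlap AY074887 on the opposite strand.

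The rest of the alpha rings gave log2 fold changes of 0.31 for Psma2, 0.07 for Psma1, 0.02 for Psma7 and -0.19 for Psma3, with a median of 0.05 over the 6 genes. Psma2 was picked out with its values known, because its call rested on 1 library. It had 307, 300, 223 and 635 normalized counts in WT replicates 1 to 4, and 469, 509, 412 and 431 in the unnumbered Cd36KO library and Cd36KO replicates 2 to 4. All 4 Cd36KO values lay above WT replicates 1 to 3 and below WT replicate 4. With all libraries the DESeq2 adjusted p was 0.644, and without WT replicate 4 the log2 fold change was 0.71 with an adjusted p of 0.00332. Without any other single library the adjusted p was 0.564 to 0.916. Psma5 was detected at 7.06 to 33.1 normalized counts, and Psma8, an alpha subunit of the testis, had 1 read in all.

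The ATPases that unfold substrates had 4 estimates above 0 and 1 below, with a median of 0.11, and none passed. Psmc4 had the largest estimate of all members with a mean of at least 50, with 149, 197, 149 and 215 normalized counts in WT replicates 1 to 4, 365 in the unnumbered Cd36KO library and 165, 231 and 268 in Cd36KO replicates 2 to 4. The unnumbered library was far above the rest, and Cd36KO replicate 2 lay within the WT range. The log2 fold change was 0.54 (standard error 0.25, DESeq2 adjusted p = 0.258), and 0.32 without the unnumbered library. Psmc1 had 877, 1273, 1288 and 875 in WT replicates 1 to 4, 899 in the unnumbered Cd36KO library and 906, 896 and 1191 in Cd36KO replicates 2 to 4, a log2 fold change of -0.15 (standard error 0.19, DESeq2 adjusted p = 0.783). Values of both groups fell either at 875 to 906 or at 1191 to 1288, and leaving out a library gave -0.05 (without WT replicate 2 or 3) to -0.26 (without Cd36KO replicate 4). Psmc5, Psmc6 and Psmc3 had log2 fold changes of 0.32, 0.11 and 0.03, and Psmc2, the ATPase gene on chromosome 5, as is Cd36, that the rule left out, had -0.07 (DESeq2 adjusted p = 0.91). Psmc5 had 618 normalized counts in the unnumbered Cd36KO library, against 339 to 503 in the other Cd36KO libraries and 264 to 436 in WT.

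Among the 11 non-ATPase subunits of the regulatory particle, 9 estimates were below 0 and 2 above, with a median of -0.10, and all 11 intervals spanned 0. Over the 5528 genes with a mean of at least 50, 2591 estimates were below 0 and 2937 above. Psmd14, the deubiquitinase that cuts ubiquitin chains from the substrate, had 87.6, 110, 84.7 and 140 normalized counts in WT replicates 1 to 4, 46.8 in the unnumbered Cd36KO library and 108, 65.5 and 86.9 in Cd36KO replicates 2 to 4. Its log2 fold change was -0.46 (standard error 0.29, DESeq2 adjusted p = 0.464), the lowest of the 31 members. It was -0.28 without the unnumbered Cd36KO library, -0.29 without WT replicate 4 and -0.66 without Cd36KO replicate 2. Psmd13, a lid subunit, had 302, 494, 485 and 475 in WT replicates 1 to 4, 726 in the unnumbered Cd36KO library and 465, 486 and 675 in Cd36KO replicates 2 to 4. WT replicate 1 was low and 2 Cd36KO libraries were high, while the other 5 lay between 465 and 494 (log2 fold change 0.42, standard error 0.22, DESeq2 adjusted p = 0.325). The estimate was 0.28 without WT replicate 1. Its exons overlap Sirt3 on the opposite strand.

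The ubiquitin receptor Psmd4 and the scaffold subunits Psmd1 and Psmd2 had log2 fold changes of -0.04, -0.18 and -0.07. Of the remaining lid subunits, Psmd8 had 0.19, Psmd7 had -0.01, Psmd3 had -0.10, Psmd12 had -0.12, Psmd11 had -0.15 and Psmd6 had -0.24. Psmd6 had 166 to 202 normalized counts in WT against 143 to 171 in Cd36KO, and its adjusted p in DESeq2 was 0.548.

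The assembly chaperones of the ATPase ring, which bind its parts before the particle is complete, gave a log2 fold change of 0.19 for Psmd10 and of 0.07 for Psmd9. Psmd10 had 73.1, 64.6, 78.8 and 110 normalized counts in WT replicates 1 to 4, 136 in the unnumbered Cd36KO library and 77.1, 61.4 and 97.6 in Cd36KO replicates 2 to 4 (standard error 0.29, DESeq2 adjusted p = 0.819). Psmd9 had 66.8, 70.5, 56.5 and 83.1 in WT and 61.3, 80.5, 58.3 and 90.8 in Cd36KO, in the same order of libraries (standard error 0.25, DESeq2 adjusted p = 0.932). For both genes the ranges overlapped, and leaving out 1 library turned the sign. Psmd10 was at -0.04 without the unnumbered Cd36KO library, and Psmd9 was at -0.06 without Cd36KO replicate 4 and at -0.01 without WT replicate 3. Psmd5 was detected at 15.6 to 44.5 normalized counts with an estimate of -0.42 (standard error 0.38), and Psmc3ip had 7 reads in all.

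A few libraries held most of the extreme values. Of the 31 members, 12 had their lowest value of the 8 libraries in WT replicate 1, and 10 had their highest in the unnumbered Cd36KO library. Of the 5528 genes with a mean of at least 50, 27.4% were lowest in WT replicate 1 and 22.3% highest in the unnumbered library, so these libraries stood out over all genes too. 7 members did both, namely Psma6, Psmb1, Psmb6, Psmc3, Psmc4, Psmc5 and Psmd13, as did 11.1% of all those genes. The 3 members at an unadjusted p under 0.05 are among these 7. Without WT replicate 1, 0 members reached that level, and the same count of 0 was found without the unnumbered Cd36KO library and without Cd36KO replicate 4, where 6.36%, 3.85% and 8.60% of all genes were higher at that level. Without WT replicate 4 the count was 8 members, against 14.9% of genes. Without Cd36KO replicate 2 it was 5 members, against 12.7% of genes, and 1 member, Psmd14, was then lower at that level, against 8.86% of genes. With the white adipose score as a covariate it was 8, against 14.3% of genes, and with the muscle score it was 1, Psmc4, against 8.46% of genes.

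Another pattern was shared by as many members. 10 members were highest in WT replicate 4 and 11 were lowest in the unnumbered Cd36KO library, and 7 did both, namely Psma3, Psmb5, Psmb7, Psmd1, Psmd3, Psmd6 and Psmd14. Over all genes with a mean of at least 50 these shares were 18.1%, 16% and 3.8%. The unnumbered Cd36KO library therefore held the extreme value of 21 of 31 members, split between highest and lowest, and of 38.4% of those genes. Its median deviation from the gene means over the 31 members was 0.10 on the log2 scale, against 0.06 over those genes. That median was -0.21 in WT replicate 1, against -0.07 over those genes, and 0.13 in WT replicate 4, against 0.02. In the other 5 libraries it was between -0.10 and 0.05 for the members and between -0.01 and 0.03 over those genes. WT replicate 1 had the highest sum of muscle markers and the unnumbered library the highest sum of haemoglobin genes, as given above. With the muscle score as a covariate 0 members were called and the median log2 fold change of the members was 0.02, and the part of the haemoglobin genes was not tested.

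**Figure D3:**
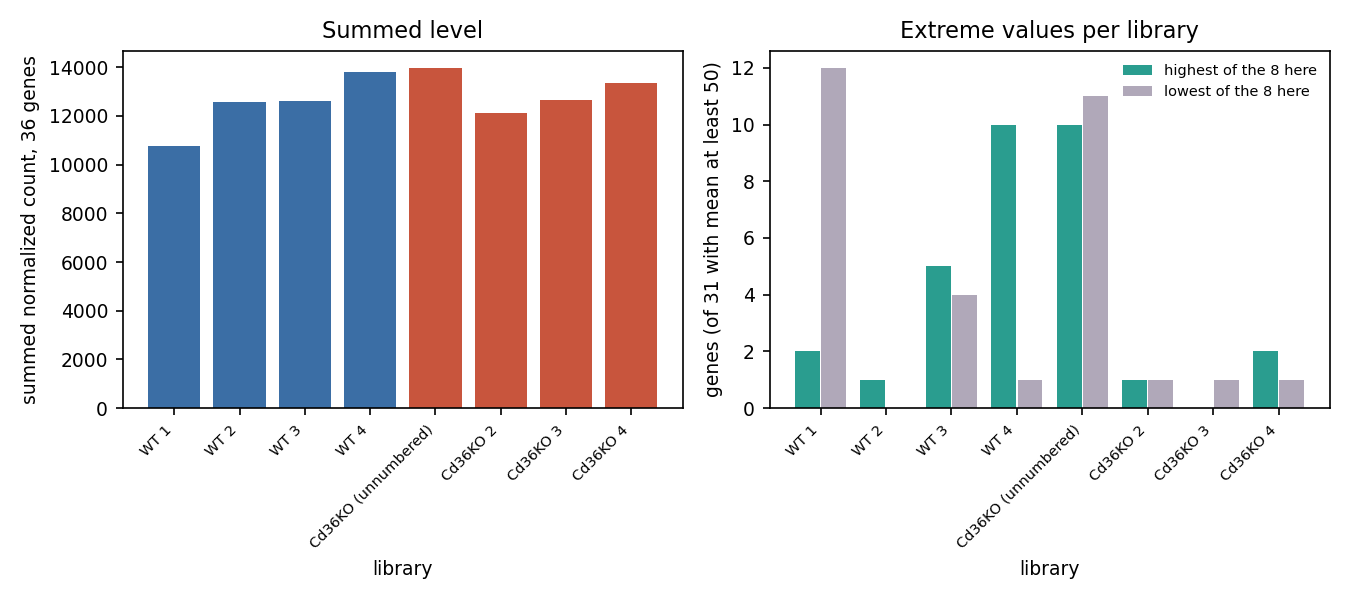
Left, summed normalized count of the 36 genes (vertical axis, from 0) in each of the 8 libraries, with WT in blue and Cd36KO in red. Right, number of the 31 genes with a mean of at least 50 that had their highest (green) or lowest (grey) value in that library. Extreme values gather in WT replicate 1 (12 lowest), WT replicate 4 (10 highest) and the unnumbered Cd36KO library (10 highest, 11 lowest).

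Around the constitutive subunits, 39 other genes of the ubiquitin-proteasome system are reported. DESeq2 called 0 of these 39, and so did edgeR, and at an unadjusted p under 0.05 DESeq2 gave 3 with higher and 3 with lower values in Cd36KO, against 7.69% and 7.88% of all genes. Without WT replicate 4 DESeq2 called 1 of them, Nfe2l1, and 8.71% of all genes. Without Cd36KO replicate 2 it called 2, Nfe2l1 and Sem1, and 5.86% of all genes. With the white adipose score as a covariate it called 4, namely Ddi2, Nfe2l1, Pomp and Psmg4, and 8.68% of all genes. Among the genes for ubiquitin, Ubb and Rps27a had log2 fold changes of -0.03 and -0.25, and the ubiquitin-activating enzymes Uba1 and Uba6 had 0.19 and 0.08.

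Nfe2l1 (ENSMUSG00000038615, chromosome 11, 96817414 to 96829968), the regulator of proteasome genes named above, had lower values in every Cd36KO library than in any WT library. It had 738, 472, 536 and 524 normalized counts in WT replicates 1 to 4, 271 in the unnumbered Cd36KO library and 441, 431 and 336 in Cd36KO replicates 2 to 4. Of genes with a mean of at least 50, 3.96% had all Cd36KO values below all WT values. Nfe2l1 did not pass (log2 fold change -0.62, standard error 0.21, DESeq2 adjusted p = 0.0752). It passed without WT replicate 4 (-0.66, adjusted p = 0.0428) and without Cd36KO replicate 2 (-0.71, 0.037), and its adjusted p was 0.0742 to 0.305 without any other single library. With WT replicate 1 and the unnumbered Cd36KO library both left out the estimate was -0.34 (adjusted p = 0.589), and with the white adipose score as a covariate it was -1.37 (0.0125). The other 9 genes listed with it, which process or degrade NFE2L1 or act beside it, had 3 estimates above 0 and 6 below, and none passed in DESeq2 (adjusted p from 0.53 to 0.835). Nfe2l2, the related factor of the oxidative stress response, had -0.24. Messenger RNA does not show how much NFE2L1 protein was processed.

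The immunoproteasome genes, which replace the catalytic subunits in immune cells and under interferon, did not pass either. Psmb10 had 116, 164, 147 and 131 normalized counts in WT replicates 1 to 4, 252 in the unnumbered Cd36KO library and 168, 173 and 168 in Cd36KO replicates 2 to 4, all Cd36KO above all WT (log2 fold change 0.44, DESeq2 adjusted p = 0.271). That pattern was found in 6.91% of genes with a mean of at least 50. Without the unnumbered library the estimate for Psmb10 was 0.28. Psmb8 had 125, 97.7, 87.0 and 103 in WT and 170, 173, 101 and 123 in Cd36KO in the same order of libraries, and the groups overlapped (0.45, adjusted p = 0.341). Psmb9 had 14.5 to 33.4 over the 8 libraries (-0.29, adjusted p = 0.802), and leaving out 1 library gave -0.59 to -0.13. The summed normalized count of 10 macrophage markers was 570 to 937 in WT and 622 to 940 in Cd36KO, and its part in these values was not tested. Among these markers Cd163 passed (log2 fold change -1.25, DESeq2 adjusted p = 0.0183), with all Cd36KO values below all WT values. Mrc1 had -0.85 (0.191), while Lyz2, C1qa and C1qb had 0.19, 0.19 and 0.10.

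Of the other lists, the 7 further subunits and associated factors had a median log2 fold change of 0.18, the 5 assembly chaperones of the core -0.01, the 5 activators and inhibitor 0.18 and the 4 shuttle factors -0.01. The widest estimates among the subunits were those of Sem1, a small lid subunit, at -0.81 (DESeq2 adjusted p = 0.172), and of the ubiquitin ligase Ube3c at 0.46 (0.17). Of the activators and inhibitor, Psmf1, the inhibitor, had 0.45 (0.356), Psme3 0.42 (0.328), Psme1 0.18 (0.626), Psme2 0.10 (0.928) and Psme4 -0.38 (0.233). Among the shuttle factors, which carry ubiquitinated proteins to the proteasome, Ubqln4 had 120, 128, 108 and 118 normalized counts in WT replicates 1 to 4, 148 in the unnumbered Cd36KO library and 133, 169 and 173 in Cd36KO replicates 2 to 4. All Cd36KO values were above all WT values (0.40, adjusted p = 0.257), as they were for Ube3c, while for Sem1 all were below. Of genes with a mean of at least 50, 6.91% had all Cd36KO values above all WT values and 3.96% all below. Ubqln2 had 4.46 to 26.3 normalized counts over the 8 libraries (-0.87, 0.422), and Ubqln1 and Rad23b had -0.11 and 0.09. None of these lists held a gene that passed.

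**Figure D4:**
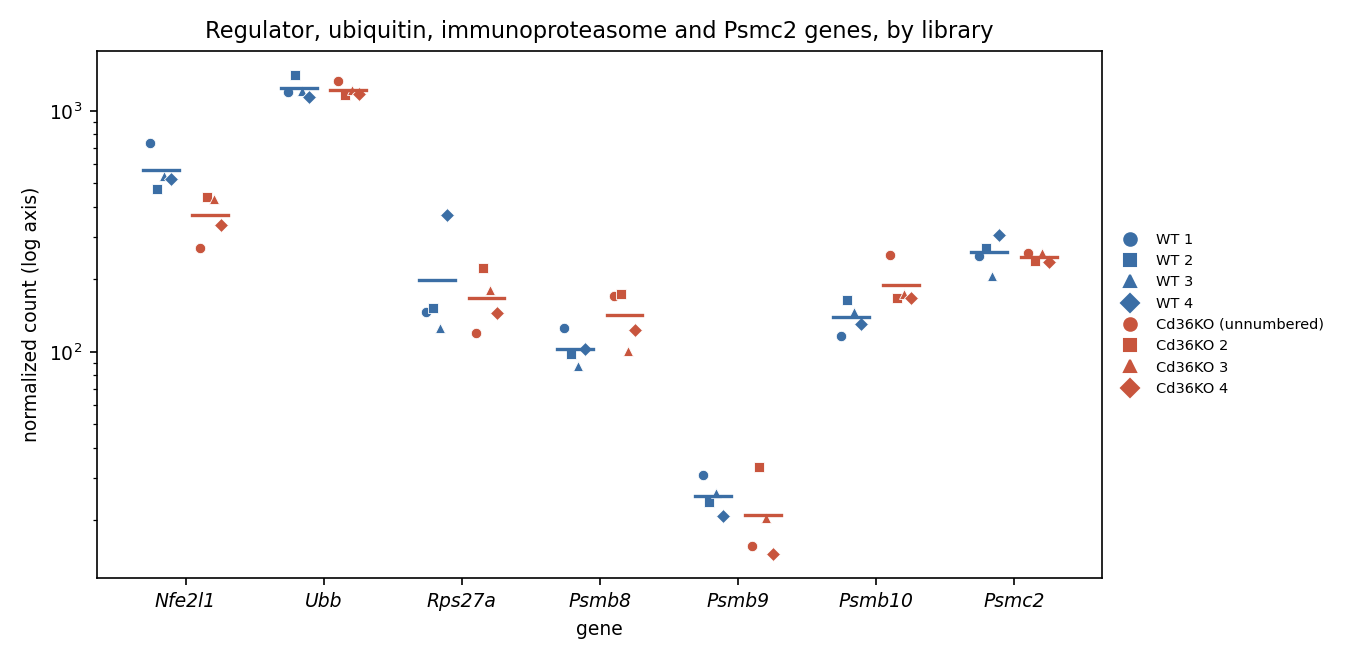
Normalized counts (vertical log axis) of Nfe2l1, 2 ubiquitin genes, 3 immunoproteasome genes and Psmc2 (horizontal axis) in 4 WT (blue) and 4 Cd36KO (red) libraries. Each marker shape is a library and bars are group means. Nfe2l1 lies at 472 to 738 in the WT and 271 to 441 in the Cd36KO libraries, and Psmb10 at 116 to 164 against 168 to 252.

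As NFE2L1 drives proteasome genes, the bases before the start of each member gene were searched for the core of the antioxidant response element, TGACNNNGC on either strand, which NFE2L1 and NFE2L2 bind with a small MAF partner. RefSeq windows on GRCm38.p6 were found for 29 members (30 windows), and 250 bases before the start were read. The core was in 5 windows, or 16.7%, against 10.2% of 32851 windows of all genes. The 5 matches are printed in the direction of the gene, with the core in capitals and up to 10 bases on each side.
Psmb6 (chr11:70525338-70525356, plus strand, 9 bases before the start): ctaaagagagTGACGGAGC
Psmb5 (chr14:54618024-54618052, minus strand, 47 bases before): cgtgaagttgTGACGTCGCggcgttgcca
Psmd9 (chr5:123228149-123228177, plus strand, 31 bases before): atctagccggTGACCCCGCccacttccaa
Psmc6 (chr14:45329587-45329615, plus strand, core on the opposite strand, 227 bases before): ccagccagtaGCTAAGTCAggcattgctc
Psmd12 (chr11:107479278-107479299, plus strand, core on the opposite strand, 247 bases before): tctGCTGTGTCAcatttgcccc

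The log2 fold changes of these 5 genes were 0.39 for Psmb6, -0.26 for Psmb5, 0.07 for Psmd9, 0.11 for Psmc6 and -0.12 for Psmd12, so both signs occurred. TGACTCAGC, a form of the same core that also fits AP-1, was in 0 member windows and in 0.39% of all windows. The NF-Y box CCAAT was in 12 member windows, or 40.0%, against 33.8% of all windows. A match of letters is a description and not a site.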

How the data were processed

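Bulk RNA-seq of BAT was analysed from 4 WT and 4 Cd36KO libraries, grouped by the sample labels. According to the methods, the authors cleaned reads with bbduk, used STAR for alignment to mm10 and took counts per gene from HTSeq-count, and the submitters' processing notes also name Trimmomatic, HISAT2 and DESeq2. The annotation release, strand setting and molecular identifiers are not stated in the sources used here. The deposited counts are whole numbers per gene. The deposited log2 values are those counts scaled by the authors and were used for 1 alternative only. All columns matched a listed sample or group.

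Symbols and coordinates came from GENCODE M21 on GRCm38 (30934 rows matched), and promoter windows from RefSeq on GRCm38.p6. The main test was DESeq2 1.42.0 in R 4.3.3 (Wald test, genotype only), with Benjamini-Hochberg adjustment over all genes and a threshold of 0.05. The edgeR 4.0.16 quasi-likelihood test was the first alternative, and limma 3.58.1 was used on the log2 values. For normalized counts, each count was divided by its library's DESeq2 size factor. The models were tested on simulated counts, where both recovered most changed genes but made false calls above the nominal rate, DESeq2 more than edgeR. The tolerance set for false calls was widened after DESeq2 exceeded it, and the models were left as they were. Figures were drawn with matplotlib 3.10.9.

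Named members were those called, those whose groups did not overlap at a mean of at least 50, the catalytic subunits, Psmd14, and the highest and lowest log2 fold change of each role. Named other genes were Cd36, Nfe2l1, Psmc2, the immunoproteasome genes and any called. Some genes first listed with these are not reported here and enter none of the list counts. Members outside this rule were given to account for all of them. List genes outside it, such as Sem1, Ube3c, Ubqln4, Col1a2 and the other marker genes named singly, were chosen after their values were seen. The members, lists and tests were chosen with earlier results of these data known. Alternatives were TMM factors, a filter of 10 counts in 4 libraries, no independent filtering, a replicate block, leaving out each library, and muscle or white adipose marker scores (mean log2 CPM, prior count 2) as covariates. Marker sums are sums of normalized counts. Between libraries of 1 group the chi-square over its degrees of freedom was 6.43 or more, so none were merged. Depth was 2679785 to 4097953 counts per library. Reads may be PCR copies of 1 molecule, so depth bounds counting error only.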

Additional observations from a re-analysis of the deposited data

Results flagged for a closer look

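In a group of 4 libraries, 7 of 78 gene and group combinations held a library far from the other 3 by Dixon's test at 95%, where chance gives 3.9. Psma7 had 621 normalized counts in WT replicate 1, against 812 to 856 in the other WT libraries. Psmb6 had 357 in the same library, against 486 to 505. Psmd13 had 302 there, against 475 to 494. Psmb5 had 110 in WT replicate 4, against 43.3 to 49.4. Psmd11 had 208 in WT replicate 3, against 275 to 282. Psmc1 had 1191 in Cd36KO replicate 4, against 896 to 906. Psmb10 had 252 in the unnumbered Cd36KO library, against 168 to 173. 3 of the 7 values lie in WT replicate 1.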

How the results depend on the processing

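Members called stayed at 0 in either direction in every alternative run but 2. Some of these runs called few genes of any kind, so a count of 0 says little there. The limma run called 0 of 9793 genes, edgeR 14 of 9793, and DESeq2 without WT replicate 2 called 70 of 4420. The white adipose score as covariate gave 3 higher (Psmb4, Psmb6 and Psmd13), where 6.3% of all genes were called higher, and a member median of 0.47, against -0.07 to 0.08 in the other alternatives and 0.02 in the test reported. That score separates the groups completely, 3.214 to 4.882 in WT and 1.493 to 2.346 in Cd36KO, so it and genotype can hardly be told apart. Leaving out single libraries gave 0 to 1 members called higher, 0 lower and a median of -0.03 to 0.08. The 1 was Psma2 without WT replicate 4. Of the 39 other genes of the system, 0 were called in the test reported, 0 to 2 with a library left out, 4 with the white adipose score, and 0 in the other alternatives. The signs of some single estimates turned. With the white adipose score the log2 fold change was 1.14 for Psmb5, 0.36 for Psmb7, 0.18 for Psmd14, 0.06 for Psmc1 and 0.13 for Psmc2, and with the muscle score it was 0.04 for Psmc2. With a library left out, Psmb5 ran from -0.41 to 0.17, Psmc2 from -0.15 to 0.02, Psmd10 from -0.04 to 0.37 and Psmd9 from -0.06 to 0.17. The cause was not tested. The replicate block on the 3 numbered pairs (6 libraries) gave 0 members called, 0 other genes called and a median of -0.03, with Psmd10 at -0.09 and Nfe2l1 at -0.35 (adjusted p = 0.947), and the same 6 libraries without the block gave 0 other genes called and Psmd10 at -0.09. Deviations of libraries with the same number correlated at -0.127, 0.422 and 0.141. Libraries with different numbers were not compared in this way, so whether the numbers pair the libraries cannot be said. Over the named genes, 141 of 153 estimates kept their sign and call in the other alternatives, and 128 of 136 with a library left out. An estimate without an adjusted p in a run was counted as keeping its call. No named gene passed in the test reported, so keeping the call meant staying uncalled. For 15 of 31 members the 95% interval reached beyond 1.5-fold, which limits what 4 libraries a group could show.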
